A study of Mus musculus with 3 samples.

Results

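The 10 genes described here encode receptors for bone morphogenetic proteins (BMPs), activins and transforming growth factor beta (TGF-beta): Bmpr1a, Bmpr2, Acvr1, Acvr1b, Acvr1c, Acvr2a, Acvr2b, Tgfbr1, Tgfbr2 and Tgfbr3. They were chosen by name, as 10 of 21631 protein-coding genes, and their peaks were those overlapping the gene body plus 10 kb on each side in mm10. This gave 135 of 62361 peaks in the knockout library and 117 of 72040 peaks in the wild-type library. The mark measured was histone H3 monomethylated at lysine 4 (H3K4me1), which is found at enhancers and beside active promoters, by chromatin immunoprecipitation and sequencing with antibody ab8895.

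The first library came from primary adipocytes of male C57BL/6J mice lacking LONP1, the mitochondrial Lon protease, in adipocytes (AKO), and the second from adipocytes of male wild-type C57BL/6J mice that served as their controls (WT). Input chromatin without antibody was sequenced as well and was the background of both peak lists. Its title ties it to the AKO library and its genotype label says wild type. The number of mice, the fat depot, the driver of the adipocyte deletion and any allele shared by both genotypes are not given in the sources used here, and peaks of this mark do not show whether Lonp1 was deleted. With 1 library for either genotype, the spread between animals is unknown and no p-value is given. Every difference below is one between these libraries.

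BMPs, activins and TGF-beta signal through complexes of type II and type I receptors, which are serine/threonine kinases. The ligand brings the receptors together, the type II receptor phosphorylates the type I receptor, and the type I receptor phosphorylates SMAD proteins that enter the nucleus and act on transcription. BMP receptors are known to promote the commitment of precursors to brown and white adipocytes, TGF-beta receptors to oppose adipocyte differentiation, and the activin receptor-like kinase encoded by Acvr1c to restrain lipolysis in mature fat cells.

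After removal of duplicates the AKO library held 14733950 tags and the WT library 15015805, a ratio of 0.981, against 9537585 for the input. The AKO list covered 44.3 Mb and the WT list 60.2 Mb. Pileup, the height of a peak at its summit, is given below as the number of fragments stacked there, and the lowest summit called anywhere had 10 fragments in either list. A gene without a peak therefore had no region above the authors' threshold, which is not the same as no mark. In chromatin from a mixture of cells, fewer marked cells and less mark per cell cannot be told apart.

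Promoter sequences of 9 of the 10 genes were taken from RefSeq (GRCm38.p6, the assembly named mm10), as 11 windows of 300 bases from 250 bases before to 50 after a transcription start site. Of all 21045 such promoters in the table, 8.86% overlapped an AKO peak and 16.1% a WT peak. Among the 11 receptor promoters, 1 overlapped an AKO peak and 2 overlapped a WT peak, and all of these belonged to Acvr1c. Below are both Acvr1c promoters, of which the upstream one lay wholly within a peak in either library, the Acvr2b promoter, which lay between peaks, and the Bmpr1a promoter, which lay in none although 9 AKO peaks lay in the gene. Sequences run 5′ to 3′ on the gene's strand, and capitals mark CG dinucleotides.
Acvr1c upstream promoter, chr2:58357709-58358008, minus strand: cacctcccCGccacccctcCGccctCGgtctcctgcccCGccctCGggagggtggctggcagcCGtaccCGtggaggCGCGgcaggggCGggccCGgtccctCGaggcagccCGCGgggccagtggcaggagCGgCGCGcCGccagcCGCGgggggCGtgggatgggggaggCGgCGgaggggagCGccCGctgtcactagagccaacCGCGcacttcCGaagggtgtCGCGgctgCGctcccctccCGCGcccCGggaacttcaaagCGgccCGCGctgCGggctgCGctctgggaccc
Acvr1c downstream promoter, chr2:58324758-58325057, minus strand: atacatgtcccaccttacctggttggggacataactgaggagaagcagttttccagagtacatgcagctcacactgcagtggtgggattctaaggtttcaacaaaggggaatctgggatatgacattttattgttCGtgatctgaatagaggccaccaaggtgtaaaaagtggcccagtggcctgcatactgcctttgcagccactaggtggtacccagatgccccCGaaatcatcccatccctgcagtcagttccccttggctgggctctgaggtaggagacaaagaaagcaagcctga
Acvr2b promoter, chr9:119401928-119402227, plus strand: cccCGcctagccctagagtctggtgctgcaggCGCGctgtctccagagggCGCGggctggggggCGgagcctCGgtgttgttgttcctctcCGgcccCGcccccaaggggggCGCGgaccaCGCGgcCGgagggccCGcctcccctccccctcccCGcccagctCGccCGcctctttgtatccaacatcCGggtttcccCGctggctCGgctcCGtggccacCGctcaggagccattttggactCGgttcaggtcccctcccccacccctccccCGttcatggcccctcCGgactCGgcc
Bmpr1a promoter, chr14:34502497-34502796, minus strand: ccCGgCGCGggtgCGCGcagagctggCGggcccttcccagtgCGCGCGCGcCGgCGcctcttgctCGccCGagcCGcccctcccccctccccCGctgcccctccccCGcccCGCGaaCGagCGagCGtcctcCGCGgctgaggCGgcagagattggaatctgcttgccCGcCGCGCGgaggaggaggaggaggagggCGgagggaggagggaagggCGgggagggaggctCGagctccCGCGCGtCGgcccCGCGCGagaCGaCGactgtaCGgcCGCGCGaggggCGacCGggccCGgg

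The upstream Acvr1c promoter held 39 CG dinucleotides in 300 bases at 79.0% G and C. Its ratio of observed to expected CG was 0.833. The peak over it had 24 fragments at its summit in AKO and 52 in WT. The downstream Acvr1c promoter held 2 CG dinucleotides, with a ratio of 0.105, lay in no AKO peak and shared 36 bases with the edge of a WT peak of 21 fragments. Over all promoters the median ratio was 0.574, with 0.567 for promoters in a peak of either library and 0.577 for those in none.

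The other 9 receptor promoters lay in no peak of either library, and 5 of them had a peak at most 4028 bases away in both libraries. The Acvr2b promoter was 16 bases from an AKO peak of 13 fragments on its upstream side, while its nearest WT peak, of 29 fragments, began 255 bases downstream. The nearest peak to the upstream Tgfbr1 promoter was upstream of it, 1052 bases away in AKO and 323 in WT. Downstream, the nearest peak lay 1132 bases from the Acvr1 promoter in AKO and 1182 in WT, 2839 and 3025 bases from the Acvr1b promoter, and 4028 and 3954 bases from the Tgfbr2 promoter. At these 5 genes the peaks thus began outside the promoter window and not in it. Over all 9 genes with a known start site, 2 of 74 AKO peaks and 3 of 59 WT peaks had their summit within 1 kb of one.

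Motifs of SMAD proteins and of general promoter factors were searched on both strands of the 300-base windows. The SMAD box CAGAC was present in 4 of 11 receptor promoters, against 48.3% of all 21045. The BMP-responsive element GGCGCC was in 4 of 11, against 15.5%, namely in the promoters of Bmpr1a, Bmpr2, Acvr1b and the upstream one of Tgfbr1. Those promoters had ratios of observed to expected CG from 0.885 to 1.09, where the median of all promoters was 0.574. GGCGCC itself holds a CG, and the comparison was not matched for base composition. The CCAAT box, as the letters CCAAT, was in 4 of 11 against 38.5%, and the TATA box, as TATAAA, in 0 of 11 against 12.7%. No motif of these 4 was found in either Acvr1c promoter. A match is a description of the sequence and shows no bound factor.

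Summed over the 10 receptor genes, there were more but narrower peaks in AKO than in WT, and a little less covered length. Peaks of the 10 genes covered 94.2 kb in AKO and 103 kb in WT, a ratio of 0.911, where the ratio over all protein-coding genes was 0.724. Over the 4951 genes whose bodies are as long as those of the receptors, from 39.6 to 183 kb, the ratio was 0.764. Peak numbers of 135 in AKO and 117 in WT gave a ratio of 1.15, where all peaks gave 0.866 and the windows of those 4951 genes 0.902. The largest surpluses were at Bmpr1a, with 9 peaks in AKO and 1 in WT, and at Acvr1, with 30 and 22. Over the 10 genes the median peak was 475 bp wide with 18 fragments in AKO and 577 bp wide with 21 fragments in WT. Over all peaks it was 511 bp with 18 fragments in AKO and 565 bp with 19 in WT. The number of peaks depended on how a broad mark was divided. With peaks within 1 kb of each other joined there were 73 in AKO and 78 in WT, and the joined lengths, gaps included, had a ratio of 1.01 where all genes had 0.740. Among peaks with −log10 q no lower than 5 there were 50 in AKO and 69 in WT, a ratio of 0.725 where all such peaks gave 0.583.

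Coverage was lower in AKO at 7 receptor genes and higher at 3, where 78.4% of all 14924 genes with a peak had less and 21.6% had more. Counted within the gene body alone, 4 receptor genes had less in AKO. Acvr2a, Acvr1, Tgfbr1, Bmpr1a and Acvr1b then had more, and Bmpr2 had no peak there in either library. The share over all genes was not computed for that window. The number of peaks was higher in AKO at 7 receptor genes and lower at 3, and 24.5% of all genes with a peak had more peaks in AKO. A gene was called by a rule of size in place of a test, which asked for more than 2 times the length in 1 library and for 2 kb or more between the libraries. By it, 0 of the 6 receptor genes with at least 2 kb in WT were lower in AKO, against 14.1% of all such genes. Of the 6 with at least 2 kb in AKO, 1 was higher, which was Bmpr1a, against 0.758% of all such genes. The median difference, AKO minus WT, was -0.581 kb over the receptors and -0.736 kb over all genes with a peak.

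**Figure D1:**
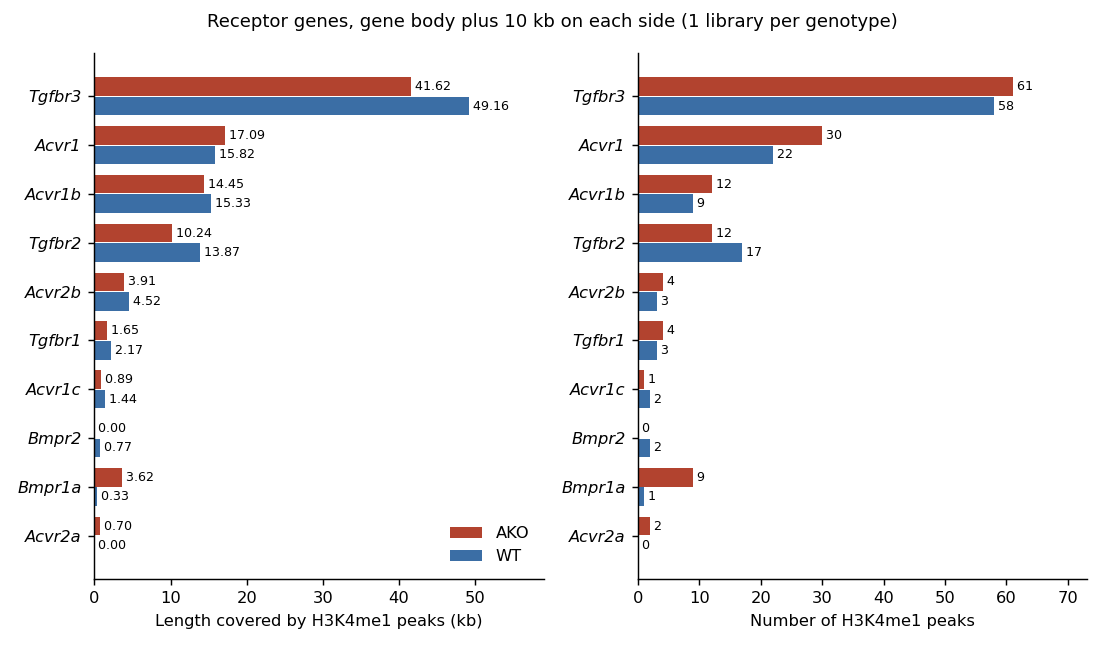
Length covered by H3K4me1 peaks in kb (left) and number of peaks (right) at each receptor gene with 10 kb on each side, with AKO bars above WT bars and 1 library per genotype. Tgfbr3 carries the most in both libraries, 41.6 kb in AKO and 49.2 kb in WT, and Bmpr1a stands out by 9 peaks in AKO against 1 in WT.

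By covered length, not corrected for gene length, the genes fell into 3 levels that both libraries shared. Tgfbr3, the longest gene with a body of 183 kb, had 41.6 kb in AKO and 49.2 kb in WT. Acvr1, Acvr1b and Tgfbr2 followed with 10.2 to 17.1 kb in AKO and 13.9 to 15.8 kb in WT. Acvr1b is the shortest receptor gene, at 39.6 kb, so the levels are not densities of the mark. The other 6 genes had 0 to 3.91 kb in AKO and 0 to 4.52 kb in WT, and of these Acvr2b had the most in both. Acvr1, Acvr1b and Tgfbr2 kept that order in AKO and in WT. Among the 6 low genes the order differed, since Bmpr1a was just behind Acvr2b in AKO and next to last in WT. Without replicates, whether neighbours in these orders differ cannot be tested.

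Partners, meaning peaks of the other list that overlap by at least 1 bp, were found for 101 of the 135 AKO peaks and 87 of the 117 WT peaks. These are 74.8% of AKO peaks (exact binomial 95% interval 66.6 to 81.9%), where all AKO peaks gave 76.2%, and 74.4% of WT peaks (65.5 to 82.0%), where all WT peaks gave 60.4%. The share for WT peaks was 49.3% when both lists were restricted to −log10 q no lower than 5. The share over all WT peaks was not computed there, and the whole lists then held 20910 AKO and 35846 WT peaks. Intervals here and below cover counting error only, and peaks of 1 gene are not independent. The 34 AKO peaks without a partner had a median of 15 fragments and at most 24, and the 30 WT peaks without one had a median of 17 and at most 30. Peaks with a partner were taller, with medians of 19 fragments in AKO and 22 in WT. Most peaks sat inside the genes, with summits in the gene body for 125 in AKO and 104 in WT. Whether these are exonic or intronic was not determined, because the annotation used gives gene ends only.

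Overlapping peaks of both lists were merged into 146 regions. There were 82 with a peak in both libraries, 34 in AKO only and 30 in WT only, or 56.2%, 23.3% and 20.5%. The same shares over all 84384 regions were 48.6%, 17.6% and 33.8%. In the 82 shared regions the AKO to WT ratio of the highest pileup had a median of 0.890 and ran from 0.470 to 1.59, where all 41022 shared regions had a median of 0.858. AKO was lower in 56 of the 82, or 68.3% (57.1 to 78.1%), against 71.8% of all shared regions, and higher in 26. The ratio was lower among tall regions, with a median of 0.860 in the 41 regions of higher mean pileup and 0.947 in the other 41. Summits of the 2 libraries were a median of 115.5 bp apart within a shared region, against 144 bp over all.

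**Figure D2:**
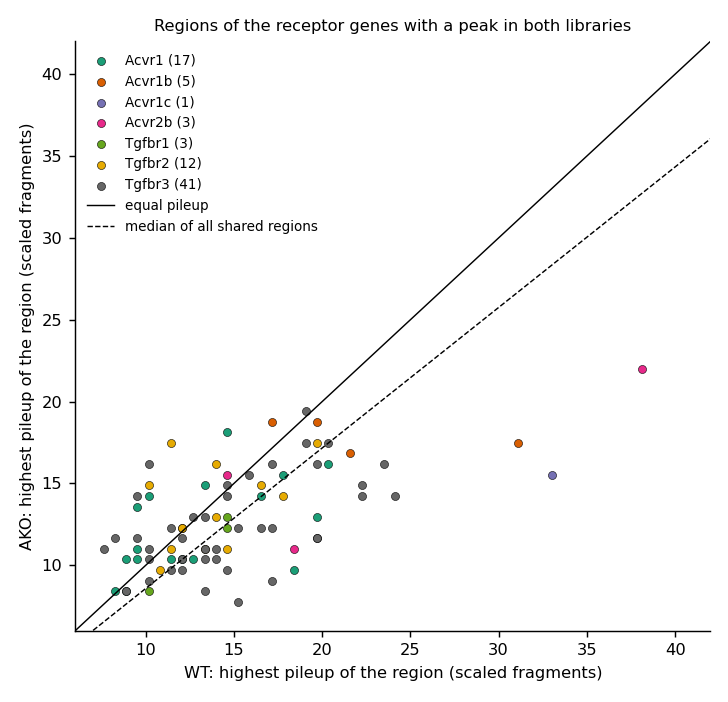
Highest pileup in AKO (vertical axis) against WT (horizontal axis), in fragments scaled to the input's tag number, for the 82 regions of the receptor genes with a peak in both libraries, coloured by gene. The solid line marks equal pileup and the dashed line the median ratio of all shared regions, 0.858. Most points lie below the solid line, 56 of 82, and the 3 tallest WT regions, of Acvr2b, Acvr1c and Acvr1b, lie farthest below it.

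Some WT peaks lay opposite several AKO peaks. Of the 117 WT peaks, 15 overlapped 2 or more AKO peaks, or 12.8% (7.36 to 20.3%), against 7.58% of all WT peaks. In the reverse direction 5 of 135 AKO peaks overlapped 2 or more WT peaks, a share not computed over all AKO peaks. Among the 82 shared regions, 13 held more AKO than WT peaks and 2 held more WT than AKO peaks. Over all 41022 shared regions these numbers were 4756 and 1635. Peaks at least 1 kb wide made up 24 of 135 in AKO (17.8%, 11.7 to 25.3%) and 30 of 117 in WT (25.6%, 18.0 to 34.5%), close to the 17.7% of all AKO peaks and 24.0% of all WT peaks.

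Bmpr1a encodes a type I receptor for BMPs and lies at chr14:34411061-34503336 on the minus strand. It had 9 peaks covering 3.62 kb in AKO and 1 peak covering 0.326 kb in WT, a difference of 3.30 kb, and none of the 10 peaks overlapped a peak of the other list. Over all protein-coding genes its difference ranked 46th from the most positive. The AKO peaks were spread through the gene body from 3.97 to 57.4 kb downstream of the start site. They were narrow, from 270 to 564 bp, and 8 of the 9 were low, at 13 to 18 fragments. The tallest, at chr14:34485030-34485523, had 24 fragments (exact Poisson 95% interval 15.4 to 35.7). The WT peak at chr14:34449544-34449869 had 23 fragments (14.6 to 34.5), and its summit was 4.60 kb from the nearest AKO summit. The additional covered length at Bmpr1a in AKO was thus made of scattered, mostly low peaks, with no peak taller than the WT one by more than 1 fragment.

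The call at Bmpr1a held for summits of 15 or more fragments, with a difference of 2.62 kb, and with equal numbers of peaks in both lists, but not under a pair of other peak thresholds or in the widest window. Restricted to peaks with −log10 q no lower than 5 the difference was 0.168 kb, and restricted to a fold enrichment no lower than 4 it was 1.96 kb. With 50 kb on each side in place of 10 it was -1.83 kb. Between 10 and 200 kb from the gene, AKO had 15.6 kb in peaks and WT 26.4 kb, a ratio of 0.589. The ratio of 0.724 over all genes is for gene bodies plus 10 kb and was not computed for such flanks. Of 10 other protein-coding genes within 200 kb, less was covered in AKO at 6 and more at 3, and 1 was without peaks. Each was counted with 10 kb on each side, so neighbours can share peaks. Among them, Ldb3, a Z-disc protein gene, had 9.14 kb in AKO and 15.6 kb in WT, and Sncg, the gamma-synuclein gene, had 2.67 kb and 5.53 kb, which the rule of size called lower.

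Acvr1 encodes a type I receptor for BMPs and activins and lies at chr2:58446438-58566828 on the minus strand. It had 30 peaks covering 17.1 kb in AKO and 22 peaks covering 15.8 kb in WT, a difference of 1.27 kb. Of its 30 regions, 17 were shared, 9 had a peak in AKO only and 4 in WT only. The shared regions had a median pileup ratio of 0.947, lower in AKO in 9 and higher in 8, so neither library was taller throughout, while the AKO list held more separate peaks. The tallest AKO peak, at chr2:58530025-58531484, had 28 fragments, and the tallest WT peak, at chr2:58533136-58535150, had 32. A WT peak that overlaps the tallest AKO peak, chr2:58530610-58532410, had 21 fragments and lay opposite 3 AKO peaks. The lowest ratio at this gene was at chr2:58515801-58516430, with 15 fragments in AKO and 29 in WT, a ratio of 0.527 (exact 95% interval 0.263 to 1.02). The tallest AKO peaks without a partner had 23 fragments, at chr2:58513218-58513651 and, upstream of the start site, at chr2:58568316-58568743. The tallest such WT peak, chr2:58551767-58552478, had 24. The size and direction at Acvr1 moved with the choice of peaks, from a difference of -2.38 kb where −log10 q was 5 or more and -0.020 kb for summits of 15 or more fragments to 2.73 kb where fold enrichment was 4 or more and 4.42 kb with peaks within 1 kb joined.

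Acvr1b encodes the main type I receptor for activins and lies at chr15:101174072-101213684 on the plus strand. It had 12 peaks covering 14.5 kb in AKO and 9 peaks covering 15.3 kb in WT. A broad domain filled the first part of the gene in both libraries. In WT it included the widest peak of any receptor gene, chr15:101177146-101183674, which was 6529 bp wide with 49 fragments at its summit (exact Poisson 95% interval 36.3 to 64.8). In AKO the same stretch held 4 peaks that covered 5.80 kb with at most 27 fragments (17.8 to 39.3). The ratio of their pileups was 0.562 (exact 95% interval 0.337 to 0.916). A small region that follows, chr15:101184137-101184725, had 19 fragments in either library, a ratio of 1.02. The next wide region, chr15:101188209-101191097, had 29 fragments in AKO and 27 in WT, a ratio of 1.09. The one after it, chr15:101191245-101196657, had 29 fragments in AKO and 31 in WT, a ratio of 0.953, and it held the widest AKO peak of the receptor genes, 4381 bp at chr15:101192277-101196657. The height was lower in AKO at the domain near the start site. Ratios were between 0.953 and 1.09 at the 3 regions downstream of it in the same gene. The interval at that domain includes 0.858, the median ratio of all shared regions, and a choice by height in WT favours low ratios. The tallest peak without a partner had 18 fragments in AKO, at chr15:101212641-101212930. In WT a pair of such peaks had 22 fragments each beyond the 3′ end, at chr15:101221481-101221869 and chr15:101222108-101222656. At the upstream edge of the window a WT peak of 34 fragments, chr15:101162486-101164597, crossed the boundary, while its AKO counterpart was split into a peak just inside and one of 26 fragments just outside, chr15:101162470-101164032. The small difference in covered length, -0.876 kb, depended on such edges and on weak peaks, since it was 0.436 kb within the gene body alone and 2.17 kb where fold enrichment was 4 or more. The receptor gene Acvrl1 lies 28.7 kb upstream.

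**Figure D3:**
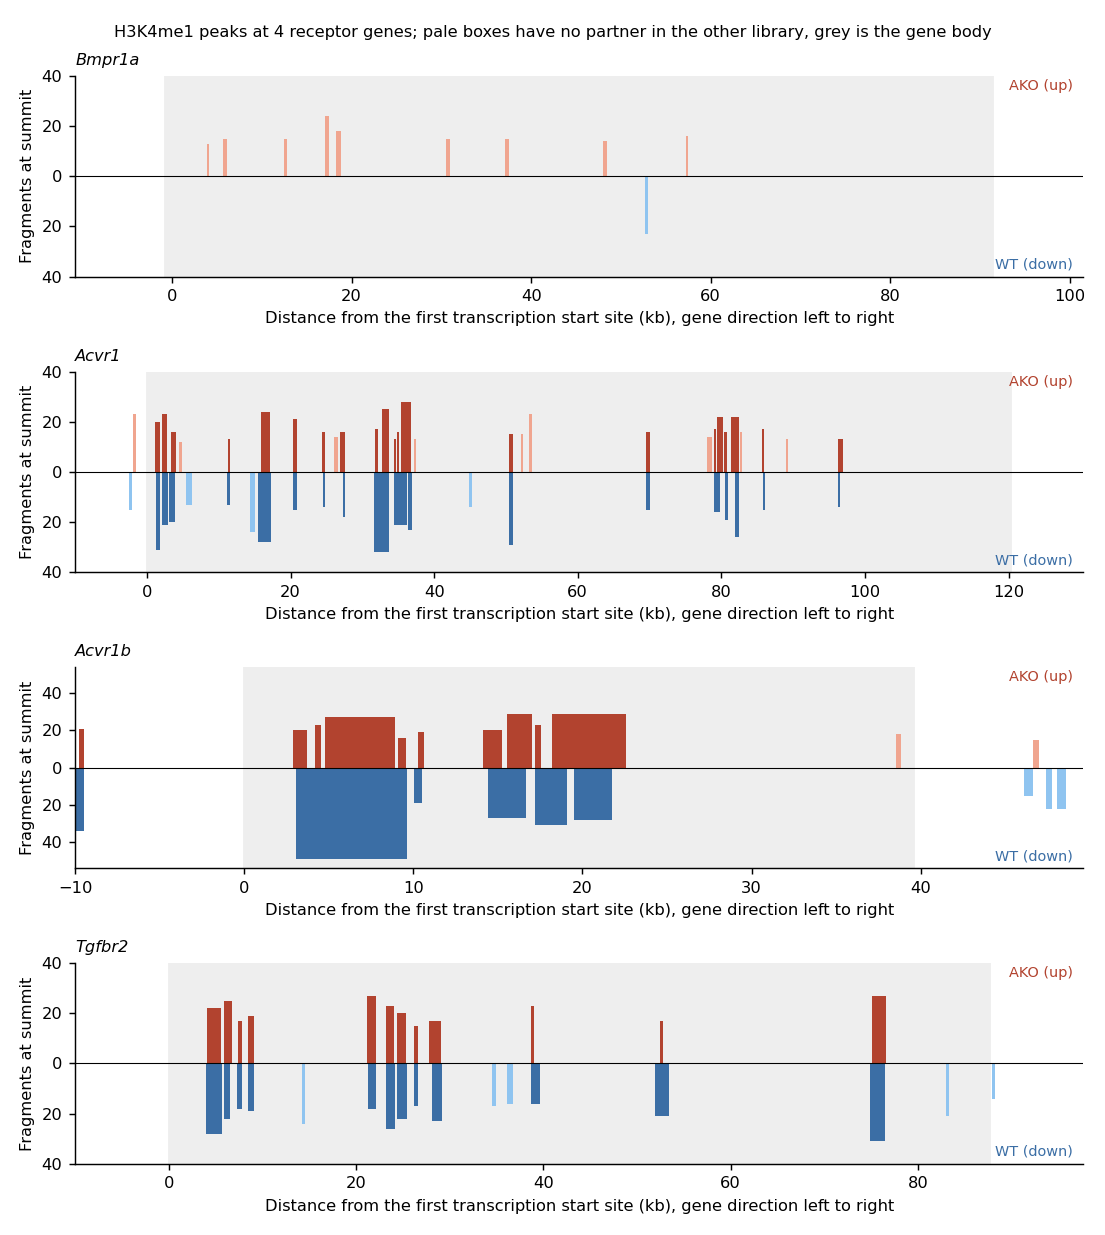
Peaks of Bmpr1a, Acvr1, Acvr1b and Tgfbr2 by distance from the first transcription start site in kb, with AKO peaks drawn upward and WT peaks downward, box width as peak width and box height as fragments at the summit. Dark boxes have a partner in the other library and pale boxes have none. All 10 Bmpr1a boxes are pale, the WT domain of 49 fragments at Acvr1b faces lower AKO peaks, and all 12 AKO peaks of Tgfbr2 are dark.

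Acvr1c encodes a type I receptor for activin B, growth/differentiation factors and Nodal that is expressed in mature adipocytes, and lies at chr2:58267453-58357896 on the minus strand. It had 1 peak covering 0.890 kb in AKO and 2 peaks covering 1.44 kb in WT. The shared region at its upstream promoter, chr2:58357138-58358238, had 24 fragments in AKO and 52 in WT. Its pileup ratio of 0.470 (exact 95% interval 0.277 to 0.777) was the lowest of the 82 shared regions. The AKO peak was 890 bp wide and the WT peak 1101 bp, so the region differed more in height than in width. The second WT peak, chr2:58324451-58324793, lay at the downstream promoter and had no partner. Acvr1c and Acvr1 lie next to each other on chromosome 2 on the same strand, 88.5 kb apart. They differed in direction as reported, with a difference of -0.554 kb at Acvr1c and 1.27 kb at Acvr1. Where −log10 q was 5 or more both had less in AKO, with -0.554 kb at Acvr1c and -2.38 kb at Acvr1.

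Tgfbr1 encodes the type I receptor for TGF-beta and lies at chr4:47353222-47414926 on the plus strand. It had 4 peaks covering 1.65 kb in AKO and 3 covering 2.17 kb in WT. All 3 WT peaks had a partner, and the pileup in AKO was lower at each, with ratios of 0.829, 0.886 and 0.842. The tallest, just upstream of the start site at chr4:47351486-47352649, had 20 fragments in AKO and 23 in WT but covered 0.435 kb in AKO and 1.14 kb in WT. The fourth AKO peak, chr4:47381874-47382241, had 14 fragments. The difference of -0.527 kb came from the flank, and within the gene body alone it was 0.206 kb.

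Bmpr2 encodes the type II receptor for BMPs and lies at chr1:59764279-59878081 on the plus strand. It had no peak in AKO and 2 peaks covering 0.769 kb in WT. These had 16 and 21 fragments, at chr1:59886204-59886477 and chr1:59886784-59887278, both beyond the 3′ end. Its gene body of 114 kb therefore held no peak in either library. The nearest AKO summit was 8.63 kb from a WT one. Between 10 and 200 kb from the gene there were 6.20 kb in AKO and 4.92 kb in WT, and with 50 kb on each side the difference, -0.769 kb as reported, was 1.04 kb.

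Acvr2a encodes a type II receptor for activins and BMPs and lies at chr2:48814109-48903264 on the plus strand. It had 2 peaks covering 0.704 kb in AKO and none in WT. The AKO peaks, at chr2:48834237-48834670 and chr2:48845169-48845438, had 14 and 16 fragments, where the median of all AKO peaks was 18. The nearest WT summit was 155 kb away. The surroundings out to 200 kb were almost without the mark, with 0.420 kb in AKO and 0.313 kb in WT. Bmpr2 and Acvr2a each had peaks in 1 library only. Neither AKO peak of Acvr2a had a −log10 q of 5, whereas the taller WT peak of Bmpr2 had one of 6.99.

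Acvr2b encodes a type II receptor for activins, myostatin and related ligands and lies at chr9:119401583-119442148 on the plus strand. It had 4 peaks covering 3.91 kb in AKO and 3 covering 4.52 kb in WT. All 3 WT peaks had a partner. The region chr9:119424089-119426568 in the gene body was the tallest of any receptor gene in both libraries, with 34 fragments in AKO and 60 in WT, a ratio of 0.578 (exact 95% interval 0.368 to 0.894). The region just downstream of the promoter, chr9:119402482-119403765, had 17 fragments in AKO and 29 in WT, a ratio of 0.597 (0.308 to 1.12). The region beyond the 3′ end, chr9:119445456-119446245, had 24 and 23 fragments, a ratio of 1.06. The height was lower in AKO at 2 of the 3 shared regions and nearly equal at the other, which lies beside Exog, a mitochondrial nuclease gene. The intervals of the 2 lower ratios include 0.858, the median ratio of all shared regions. That of the region near the promoter also includes 1. The difference in covered length, -0.608 kb, was 0.198 kb with peaks within 1 kb joined.

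Tgfbr2 encodes the type II receptor for TGF-beta and lies at chr9:116087695-116175363 on the minus strand. It had 12 peaks covering 10.2 kb in AKO and 17 covering 13.9 kb in WT, a difference of -3.63 kb. This difference was -0.470 kb where fold enrichment was 4 or more, -0.998 kb where −log10 q was 5 or more and -1.97 kb with equal numbers of peaks. It was the receptor gene with the largest shortfall in number of peaks. All 12 AKO peaks had a partner, and 5 WT peaks had none, with 14, 21, 16, 17 and 24 fragments. The tallest of these, chr9:116160816-116161146, was higher than some shared AKO peaks of the same gene. In the 12 shared regions the median pileup ratio was 0.914, lower in AKO in 8 and higher in 4. At chr9:116153173-116154186 AKO had 27 fragments and WT 18, a ratio of 1.53 (exact 95% interval 0.812 to 2.95). The tallest WT peak, in the region chr9:116098716-116100456, had 31 fragments where AKO had 27. The 4 shared regions nearest the start site had 17 to 25 fragments in AKO and 18 to 28 in WT.

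Tgfbr3 encodes betaglycan, a co-receptor without a kinase that presents TGF-beta to the type II receptor and binds inhibin, and lies at chr5:107106567-107289629. It held 44.2% of the receptor genes' covered length in AKO and 47.5% in WT, with 61 peaks covering 41.6 kb and 58 covering 49.2 kb. It ranked 45th of all protein-coding genes by coverage in AKO and 60th in WT, with no correction for its body of 183 kb. Its difference of -7.54 kb was the most negative of the 10, although with 50 kb on each side that of Acvr1b was more so, at -9.30 kb against -8.51 kb. As a ratio of AKO to WT its coverage was 0.847, above the 0.738 of Tgfbr2 and the 0.724 of all genes. The Tgfbr3 difference was -17.8 kb where −log10 q was 5 or more and -3.06 kb with peaks within 1 kb joined. The ratio over the other 9 genes was 0.969. Of its 65 regions, 41 were shared, 10 had a peak in AKO only and 14 in WT only. The shared regions had a median pileup ratio of 0.858, equal to that of all shared regions, and AKO was lower in 30 and higher in 11.

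The tallest peaks of Tgfbr3 lay in different regions in the 2 libraries. In AKO the tallest had 30 fragments, at chr5:107282975-107283525, in a region where WT also had 30. In WT the tallest had 38, at chr5:107110207-107111371, where AKO had 22, a ratio of 0.590 (exact 95% interval 0.332 to 1.02). The region chr5:107158902-107160129 had 25 fragments in AKO and 37 in WT. The highest ratio of all 82 shared regions, 1.59 (0.817 to 3.19), was also in this gene, at chr5:107203553-107203995, with 25 fragments in AKO and 16 in WT. The widest WT peak, chr5:107234709-107239595, was 4887 bp with 32 fragments and lay opposite 4 AKO peaks of 19 to 27 fragments. The second widest, chr5:107219627-107223742, was 4116 bp with 35 fragments and lay opposite 2 AKO peaks of 23 and 22. The tallest peaks without a partner had 22 fragments in AKO, at chr5:107210830-107211528 and chr5:107225888-107226326, and 30 in WT, at chr5:107162460-107162874. Between 10 and 200 kb outside the gene there were 7.24 kb in AKO and 13.6 kb in WT, so the dense marking of both libraries ended near the gene. Regions were named for their height or width, and a choice by height in WT favours low ratios.

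**Figure D4:**
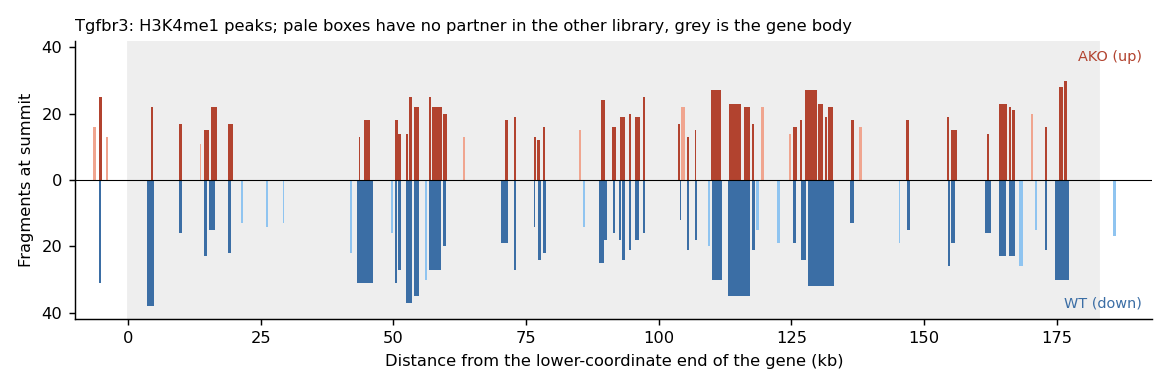
Peaks of Tgfbr3 by distance from the lower-coordinate end of the gene in kb, with AKO peaks upward and WT peaks downward, box width as peak width and box height as fragments at the summit; dark boxes have a partner and pale ones have none. Marked stretches of both libraries face each other along the gene, with up to 30 fragments in AKO and up to 38 in WT.

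By coverage and tallest summit in both libraries, the protein-coding genes most like Tgfbr3 were Mical2, Apbb2 and Foxn3. Likeness was the distance over 4 values, the log2 coverage with 0.5 kb added and the log2 fragments of the tallest summit, in each library. Mical2, a flavoprotein oxidase of actin, had 37.6 kb in AKO and 49.3 kb in WT with tallest summits of 30 and 42 fragments, at a distance of 0.202. Apbb2 had 39.5 kb in AKO and 41.9 kb in WT, and Foxn3, a forkhead repressor, had 39.5 kb and 52.3 kb.

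The rest of the pathway was described from lists of its ligands, inhibitors, signal carriers and targets. The 3 receptors outside the 10, Bmpr1b, Acvrl1 and Amhr2, had 15.3 kb in AKO and 20.7 kb in WT, a ratio of 0.740, with less in AKO at 2 and no call. Among 8 co-receptors and pseudoreceptors the ratio was 0.716, with less in AKO at 7 and no call. There Rgma, a BMP co-receptor, had 14.2 kb in AKO and 24.5 kb in WT, and Nrp1, which binds TGF-beta and vascular growth factors, had 6.34 kb in AKO and 3.97 kb in WT.

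The ligands had the lowest ratio of these lists, 0.590 over 24 genes, with 45.2 kb in AKO and 76.5 kb in WT. Coverage was less in AKO at 19 and more at 3, and 2 genes had no peak. Of the 16 with at least 2 kb in WT, the rule of size called 4 lower, where 14.1% of all such genes were. These were Inhbb, the activin B subunit gene, with 0.707 kb in AKO and 4.60 kb in WT, Tgfb3 with 2.80 and 6.00 kb, Gdf6 with 1.90 and 4.69 kb, and Nodal with 1.64 and 3.84 kb. The most positive difference was at Gdf3, with 1.39 kb in AKO and 0.657 kb in WT. Inhbb, Gdf3 and Nodal encode ligands that can act through the receptor encoded by Acvr1c.

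Among 11 extracellular inhibitors the ratio was 0.802, with 9 less and 2 more. Of the 7 inhibitors with at least 2 kb in WT, 1 was called lower, near the 14.1% of all such genes. It was Nog, whose product noggin traps BMPs, with 1.14 kb in AKO and 3.68 kb in WT. Among 12 genes of SMADs, their ubiquitin ligases and the nuclear corepressors the ratio was 0.831, with 9 less, 3 more and no call. Their 189 peaks in AKO and 160 in WT gave a ratio of 1.18, again with more peaks and less length. Smad3, the signal carrier of activin and TGF-beta receptors, had 43.9 kb in AKO and 55.7 kb in WT, and Skil, a corepressor of SMADs, had 3.71 kb and 2.01 kb. Of 9 transcriptional targets all 9 had less in AKO, where 78.4% of all genes with a peak did, and their ratio of 0.756 was above the 0.724 of all genes. Of the 6 targets with at least 2 kb in WT, 1 was called lower, against 14.1% of all such genes. It was Id2, a BMP target, with 1.03 kb in AKO and 3.20 kb in WT. Pmepa1, a TGF-beta target, had 44.7 and 51.6 kb, and Id1, a further BMP target, had the smallest difference, -0.303 kb with 4.70 kb in AKO.

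**Figure D5:**
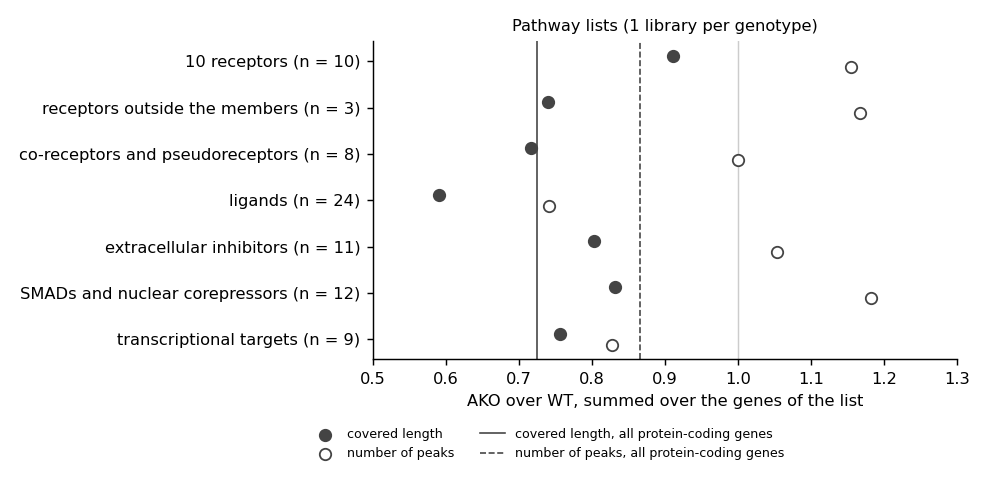
Ratio of AKO to WT for covered length (filled) and number of peaks (open), summed over the genes of each pathway list. The solid vertical line is the covered-length ratio of all protein-coding genes, 0.724, and the dashed one the peak-number ratio, 0.865. The 10 receptors have ratios of 0.911 and 1.15, and the ligands have the lowest of these lists, 0.590 and 0.741.

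Markers of cell types that primary adipocyte chromatin could contain were also compared between the libraries. Of all genes with at least 2 kb in WT, the rule of size called 14.1% lower. All 8 adipocyte markers had a peak, with 15.8 kb in AKO and 24.3 kb in WT, a ratio of 0.651 where all genes had 0.724. There was less in AKO at 7 of the 8 and more at Adipoq, with 1.31 kb in AKO and 0.995 kb in WT. Of the 5 with at least 2 kb in WT, 1 was called lower, namely Plin1 with 1.43 kb in AKO and 3.67 kb in WT. All 6 endothelial markers had a peak, with 8.80 kb in AKO and 19.5 kb in WT, a ratio of 0.452. Of the 3 with at least 2 kb in WT, 2 were called lower, Kdr and Vwf. All 6 progenitor and fibroblast markers had a peak, with 37.4 kb in AKO and 57.7 kb in WT, a ratio of 0.648. Of the 4 with at least 2 kb in WT, 2 were called lower, Col1a1 and Ly6a. Of 6 macrophage markers 3 had a peak, with 7.65 kb in AKO and 10.5 kb in WT. Their ratio was 0.727, close to that of all genes, and 0 of the 2 with at least 2 kb in WT were called lower. Ptprc, Mrc1 and Adgre1 had no peak in either library. Of 4 skeletal muscle markers 3 had a peak, with 4.79 kb in AKO and 11.6 kb in WT, and Myod1 had none in either library. The 2 with at least 2 kb in WT, Des and Acta1, were called lower. The part of differences in cell make-up in the values of the receptor genes was not tested.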

How the data were processed

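H3K4me1 was measured in 1 AKO and 1 WT library of primary adipocytes, grouped by genotype and antibody labels. Per the submitters' processing notes, the build was mm10 and the tools were Bowtie2 2.2.5, MACS2 2.2.1, FastQC 0.11.3 and bcl2fastq, whereas the file headers name MACS 2.1.1.20160309. Per the file headers, each library was compared with the same input in narrow mode with 0.05 as the q cutoff. Tags were 150 bp long and single-end, and 1 was kept per position. A broad mark is divided into several peaks in this mode. The deposited values are the authors' pileup signal at the summit, fold enrichment over local background, −log10 p and −log10 q for each peak. Pileup was scaled to the smaller dataset, per the file headers. Divided by the scale, 0.647 for AKO and 0.635 for WT, every value was whole within 0.02, which gave fragments.

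Positions were 1-based mm10, and gene ends and promoters came from RefSeq GRCm38.p6. Covered length was summed in the gene body plus 10 kb, and a partner overlapped by at least 1 bp. Peaks on unplaced contigs and Y, 6 in AKO and 8 in WT, were left out. Shares carry Clopper-Pearson 95% intervals, fragments exact Poisson ones and pileup ratios intervals from the 2 counts. For each receptor gene the tallest, the widest and the tallest unpartnered peaks were named where they exist. From each list the genes called and the extremes were named. A gene named by these rules is not reported here. Other regions, neighbours and markers were named after their values were seen. Members and lists were chosen with earlier results of these data known. Scripts used Python 3.11.15, numpy 2.4.6, pandas 2.3.3, scipy 1.17.1 and matplotlib 3.10.9 and were tested on simulated data. Alternatives varied peak thresholds, equal peak numbers, joining, overlap and windows.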

Additional observations from a re-analysis of the deposited data

How the results depend on the processing

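Of 68 recomputed summary values over the receptor genes, 62 counted as unchanged by a loose rule. Ratios had to stay on the same side of 1 and within a factor of 1.5. Numbers of genes had to be equal or within that factor, and shares within the 95% interval of the reported share. A coverage ratio of 0.683 thus counted as unchanged from 0.911. The ratio of summed coverage ran from 0.683 at a −log10 q no lower than 5, where all genes gave 0.554, to 1.01 with peaks within 1 kb joined, the alternative that turned its direction. The number of genes higher in AKO by the rule of size, 1 as reported, was 0 at that −log10 q, 0 when fold enrichment was 4 or more and 0 with 50 kb on each side. The Bmpr1a difference was then -1.83 kb. The share of WT peaks with an AKO partner was 49.3% at a −log10 q no lower than 5, where the share over all WT peaks was not computed. Genes with less coverage in AKO numbered 4 for the gene body alone, a window for which the share over all genes was not computed. The cause of these moves was not tested. At that −log10 q there were 50 peaks in AKO and 69 in WT, so the AKO list no longer held more.

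Alternatives chosen after seeing the data were peaks with at least 15 fragments, which gave 110 AKO and 104 WT peaks and a coverage ratio of 0.856, the ratio without Tgfbr3 (0.969) or without Bmpr1a (0.878), and genes of similar length as background. Of 90 recomputed differences at single receptor genes, 77 kept their sign, 10 turned and 3 were at 0. With the factor of 1.5 applied as well, 53 of the 90 kept both sign and size. With 1 library per genotype no replicate could be left out. No paired analysis was possible because there is 1 library per genotype. Summits near 10 fragments limit what can be called, so that a peak missing from 1 list may lie just under the threshold there.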
